A study of Mus musculus with 6 samples.

Results

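The 78 genes described here carry the symbols of mitochondrial ribosomal proteins, and their mRNAs were measured in mouse splenic CD8 T cells. They were taken from the deposited gene table by symbol, as every gene whose symbol reads Mrpl or Mrps followed by a number and optional lower-case letters or digits, with pseudogene entries left out. The table lists 17744 genes. All 78 members passed the filter on low values, which kept the 10655 genes with a level of at least 1 FPKM (fragment counts scaled for gene length and library size) in at least 3 of the 6 libraries.

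The study sequenced RNA from CD8 T cells sorted from spleen as CD45+ CD3+ CD8a+ cells, in 3 control libraries and 3 libraries from animals treated with focused ultrasound, which brings sound energy to a small volume of tissue. The control labels give the genotype wt and the treatment control. The labels of the treated samples give fus irradiation in both the genotype and the treatment fields, so their genotype is not stated separately. Strain, age, sound dose, interval after treatment and any batch are not given in the sources used here. The treated libraries are called ultrasound 1, 2 and 3 after their titles, and nothing in the labels says whether libraries of a group came from separate animals, so the p-values below measure the spread between these samples, which may be technical.

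Mitochondrial ribosomes translate the few membrane proteins of the respiratory chain and ATP synthase that mitochondrial DNA encodes. Their ribosomal RNAs come from mitochondrial DNA, whereas all their proteins are encoded in the nucleus, made in the cytosol and imported. Part of these proteins belong to families shared with bacterial ribosomes and the rest have no counterpart among bacterial ribosomal proteins. In T cells, mitochondrial translation is known to be needed for the respiration that supports activation and effector function.

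The 78 symbols divide unequally by the place of the protein. The large subunit, which joins amino acids, takes 51 of them: the 49 Mrpl genes with Mrps18a and Mrps30, whose proteins sit in the large subunit despite their symbols. The small subunit, which reads the mRNA, takes 26. The product of Mrps36 is now known as a component of the 2-oxoglutarate dehydrogenase complex and not of the ribosome, and Mrps36 is kept because its symbol meets the rule. By family, 47 members are shared with bacterial ribosomes and 30 are specific to the mitochondrial ribosome. The Gene Ontology terms in the authors' table place 49 members in the large subunit only, 26 in the small subunit only, 2 in both and 1, Mrps36, in neither.

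Promoter sequence was examined because nuclear genes of mitochondrial proteins are known to be bound by NRF1, by ETS family factors such as GABPA and by YY1. RefSeq promoters on GRCm38.p6, the assembly that mm10 names, were matched for 69 of the 78 members, 75 promoters in all, each running from 250 bases before to 50 bases after a start site. The motifs searched on both strands were the NRF1 palindrome, with any base in its variable position, CCGGAAG for the ETS family and AAGATGGCG for YY1. The 250 bases before the start are shown for 6 of the 8 members with the largest differences between groups, with motif letters in capitals and each sequence given 5′ to 3′ on the strand of its gene. CTTCCGG is CCGGAAG read on the other strand, and GCGCCTGCGC is likewise an NRF1 match on the other strand. They lie at chr11:59202236-59202485 on the plus strand (Mrpl55), chr3:95871515-95871764 on the minus strand (Mrps21), chr19:45006443-45006692 on the minus strand (Mrpl43), chr14:54426659-54426908 on the plus strand (Mrpl52), chr13:14613038-14613287 on the minus strand (Mrpl32) and chr3:94443086-94443335 on the plus strand (Mrpl9).
Mrpl55: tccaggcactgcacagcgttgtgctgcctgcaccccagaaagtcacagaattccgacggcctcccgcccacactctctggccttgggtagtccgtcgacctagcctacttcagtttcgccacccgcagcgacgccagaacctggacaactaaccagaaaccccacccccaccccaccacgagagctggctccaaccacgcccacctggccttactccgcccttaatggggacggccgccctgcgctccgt
Mrps21: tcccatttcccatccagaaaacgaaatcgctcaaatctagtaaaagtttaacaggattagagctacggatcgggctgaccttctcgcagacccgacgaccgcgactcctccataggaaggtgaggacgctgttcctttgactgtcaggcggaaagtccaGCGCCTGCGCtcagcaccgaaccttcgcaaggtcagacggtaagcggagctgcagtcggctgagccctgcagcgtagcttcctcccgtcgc
Mrpl43: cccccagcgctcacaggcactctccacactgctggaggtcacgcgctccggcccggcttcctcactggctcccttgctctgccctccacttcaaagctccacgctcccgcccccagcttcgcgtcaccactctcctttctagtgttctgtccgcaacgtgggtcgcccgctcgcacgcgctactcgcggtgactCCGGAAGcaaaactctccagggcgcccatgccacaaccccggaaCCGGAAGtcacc
Mrpl52: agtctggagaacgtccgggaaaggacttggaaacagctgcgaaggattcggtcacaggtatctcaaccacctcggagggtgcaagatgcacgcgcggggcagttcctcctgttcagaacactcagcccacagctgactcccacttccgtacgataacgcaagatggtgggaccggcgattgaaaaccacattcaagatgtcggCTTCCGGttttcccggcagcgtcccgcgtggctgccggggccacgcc
Mrpl32: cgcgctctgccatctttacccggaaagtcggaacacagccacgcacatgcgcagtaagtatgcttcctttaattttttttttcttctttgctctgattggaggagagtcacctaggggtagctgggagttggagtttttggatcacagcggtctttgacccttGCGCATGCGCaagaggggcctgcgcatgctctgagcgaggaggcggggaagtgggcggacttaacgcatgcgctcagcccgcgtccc
Mrpl9: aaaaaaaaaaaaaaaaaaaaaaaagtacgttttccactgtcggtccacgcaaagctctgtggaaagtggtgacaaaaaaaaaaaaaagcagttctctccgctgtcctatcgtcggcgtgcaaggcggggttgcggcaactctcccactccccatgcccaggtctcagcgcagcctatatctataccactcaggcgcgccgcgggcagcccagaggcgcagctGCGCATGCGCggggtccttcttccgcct

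Mrpl32 and Mrpl9 hold the same NRF1 match, with its first base at -87 and -28 from the start. For Mrpl9 the annotated gene begins earlier, at chr3:94443154, inside the printed window. Its match therefore lies before the promoter start used here but within the annotated gene. Mrps21 holds an NRF1 match at -91 and Mrpl43 holds 2 ETS matches at -56 and -12. Mrpl52 has an ETS match at -47, and Mrpl52 and Mrps21 each have 1 more ETS match after the start, outside the printed bases. The Mrpl55 window holds none of the 3 motifs. Among all 75 member promoters, 13 held the NRF1 letters (17.3%), against 10.6% of the promoters of tested genes and 4.6% of all promoters in the table. The ETS letters were in 26 (34.7%), against 19.1% and 8.86%, and the YY1 letters in 8 (10.7%), against 3.36% and 1.4%. At least 1 of the 3 was in 41 member promoters (54.7%), against 29.6% and 13.6%. The median log2 changes between groups of members with and without each motif were 0.11 and 0.19 for NRF1, 0.21 and 0.15 for the ETS family, and 0.22 and 0.15 for YY1. A match describes these letters only and was not tested as a binding site.

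Members are spread over 17 chromosomes and often face a neighbour. For 26 of the 69 members with a promoter (37.7%), another gene starts in the opposite direction within 1000 bases, against 20.4% of tested genes and 12.3% of all genes in that table. Several partners also serve mitochondria. Mrps12 lies head to head with Sars2, the mitochondrial seryl-tRNA synthetase, at 147 bases, Mrpl43 with Twnk, the mitochondrial DNA helicase, at 116 bases, and Mrpl47 with Ndufb5, a complex I subunit, at 308 bases. Mrpl46 and Mrps11, a large and a small subunit gene, face each other at 42 bases. Their log2 changes were 0.13 and 0.22, those of Mrpl43 and Twnk 0.43 and -0.05, and none of these 4 passed the test described below.

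The libraries held 35024080 to 38113103 reads recovered from the deposited values, and members took 72399 to 89433 of them per library. The median member value rested on 914 reads and the lowest on 236, which give counting errors of 3.31% and 6.51%, for counting alone. Ultrasound 1 stands apart from ultrasound 2 and 3: the 13 protein genes of mitochondrial DNA summed to 15467 to 20390 FPKM in the controls and 16618 in ultrasound 1, against 7042 and 6863 in ultrasound 2 and 3. T cell markers were high in every library: the 11 CD8 T cell genes listed summed to 3316.5 to 3489 FPKM in controls and 2917 to 3649 with ultrasound, and none was called. The 14 macrophage and monocyte markers summed to 612 to 1250 FPKM in controls and 2430 to 3917 with ultrasound, with 5 called higher. The 10 neutrophil markers summed to 187 to 575 FPKM in controls, 2319 in ultrasound 1 and 642 and 673 in ultrasound 2 and 3, with 3 called higher. Over 9 B cell markers the sum was 243 to 380 FPKM in controls, 181 in ultrasound 1 and 952 and 824 in ultrasound 2 and 3, and over 8 NK cell markers 106 to 194 in controls and 269 to 491 with ultrasound. None of the B cell markers was called. Of 7 tested NK cell markers 2 were called higher, Klrb1c and Tyrobp, and 1 was lower at a limma unadjusted p under 0.05. The median log2 difference of these 7 from the control mean was -0.16, 1.73 and 1.24 in ultrasound 1 to 3. The 8 dendritic cell markers summed to 378 to 745 FPKM in controls and 391.7, 1147 and 1043 in ultrasound 1 to 3. For the 6 CD4 T cell markers the sums were 179 to 206 in controls and 203, 129 and 164 in ultrasound 1 to 3. For the 8 erythroid markers they were 83.3 to 133 in controls and 112, 55.5 and 59.6 in ultrasound 1 to 3. No defining marker of the macrophage, neutrophil or B cell lists was at 0 in any library. The part of such cells in the members' values was not tested, and in sorted bulk RNA fewer cells of a type and less RNA per cell cannot be told apart.

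Member genes were expressed at moderate, graded levels. Means over the 6 libraries had a median of 16.4 FPKM, and the highest was 51.0 times the lowest. Above 10 FPKM lay 55 members, above 50 FPKM 2 members, and below 5 FPKM 5 members. The 4 highest were Mrpl52, Mrpl33, Mrps21 and Mrps16. The 4 lowest were Mrpl14, Mrps25, Mrpl1 and Mrpl17. Within the controls the levels repeated closely: the coefficient of variation over the 3 control libraries had a median of 6.11% over members, against 7.59% over all genes tested, from 0.786% for Mrps21 to 19.2% for Mrps18c.

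**Figure D1:**
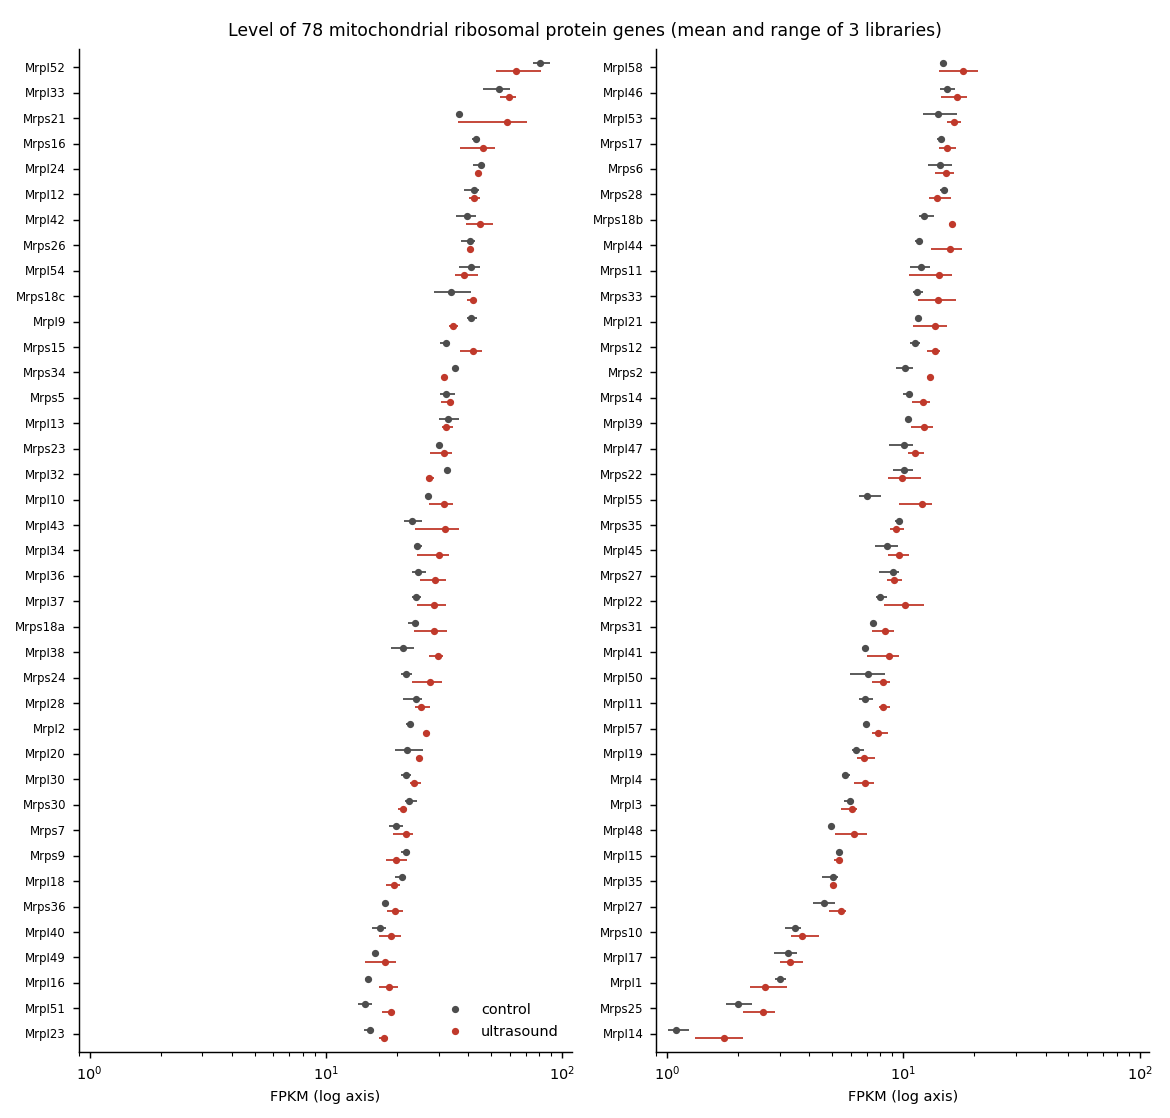
Level of each of the 78 members in FPKM on a log axis, ordered by the mean over 6 libraries from top left to bottom right. Points are group means of 3 libraries and lines run from the lowest to the highest library, with controls grey and ultrasound red. Most red points lie slightly to the right of the grey points, and the lines overlap for 57 members.

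The first question was which members differed between the groups. Mrpl55 and Mrpl38 were higher with ultrasound, and no member was lower. Both encode large subunit proteins without counterparts among bacterial ribosomal proteins. That is 2 of 78 members called higher and 0 lower (limma on log2(FPKM + 1), two-sided, Benjamini-Hochberg adjusted p under 0.05 over all 10655 genes), where 6.55% of all genes tested were called higher and 1.56% lower. At an unadjusted p under 0.05 the counts were 15 members higher and 2 lower, against 22.6% and 8.57% of all genes. In the authors' deposited table, made with DESeq2, 1 member had a q under 0.05 and a higher mean, Mrpl55, and 3 had a lower mean, Mrpl32, Mrpl9 and Mrps34, against 8.64% and 7.73% of the same genes. Voom on recovered reads called 0 members, against 2.98% and 2.35% of all genes, with 4 higher and 6 lower at an unadjusted p under 0.05, against 13% and 18.3%. With median-of-ratios factors 0 members were called by limma, against 2.75% and 1.35% of all genes, and 7 were higher and 5 lower at an unadjusted p under 0.05, against 14.7% and 15.2%. With upper-quartile factors 0 were called, against 4.05% and 1.8%, and 8 were higher and 4 lower at an unadjusted p under 0.05, against 15.4% and 14%. At an adjusted p under 0.1 with the FPKM scaling, 7 members were higher and 1 lower, against 14.3% and 4.15%.

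Mrpl55 (NCBI Gene 67212) measured 8.02, 6.54 and 6.49 FPKM in controls 1 to 3 and 9.61, 13.3 and 13.0 in ultrasound 1 to 3. All 3 ultrasound libraries lay above all controls, with ultrasound 1 nearest to them. Its mean went from 7.02 ± 0.873 to 12.0 ± 2.03 FPKM (SD over 3 libraries). The log2 change was 0.69 (SE 0.15, limma adjusted p 0.0429). Reads per library were 236 to 292 in controls and 349 to 514 with ultrasound. Under median-of-ratios scaling the change was 0.59 with adjusted p 0.0626, and without ultrasound 1 it was 0.82 with adjusted p 0.000981.

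Mrpl38 (NCBI Gene 60441), a protein of the central protuberance of the large subunit, measured 18.9, 20.8 and 23.7 FPKM in controls and 27.3, 30.5 and 31.3 with ultrasound. The groups did not overlap, and the lowest ultrasound library stood above the highest control. Means were 21.1 ± 2.38 and 29.7 ± 2.10 FPKM (SD over 3 libraries). The log2 change was 0.48 (SE 0.11, limma adjusted p 0.0469). It was not called under median-of-ratios scaling, at 0.37 with adjusted p 0.0867, and without ultrasound 1 it was 0.53 with adjusted p 0.00393. In the authors' deposited table its log2 fold change is 0.37 with q 0.0832.

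Groups that do not overlap were more frequent than calls. For 18 members all ultrasound libraries lay above all controls, against 25.9% of all genes tested, and for 3 members all lay below, against 8.96%. As shares of the 78 these are 23.1% and 3.85%. Of the 18 members that lay above, 5 beyond the called pair had an adjusted p under 0.1: Mrps18b at 0.0584, Mrps15 at 0.074, Mrpl51 at 0.0743, Mrps2 at 0.0751 and Mrpl44 at 0.0883. These 5 are outside the naming rule and were picked after their values were seen. The 3 members that lay below were Mrpl32, Mrpl9 and Mrps34.

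Mrpl32 encodes a large subunit protein that the mitochondrial m-AAA protease trims on import before it enters the ribosome. It measured 33.1, 32.04 and 32.7 FPKM in controls and 28.8, 26.4 and 26.6 with ultrasound. Every ultrasound library was below every control, in a group of controls whose coefficient of variation was 1.63%. The log2 change was -0.25 (SE 0.08, limma adjusted p 0.094), so it was not called, while the authors' deposited table gives -0.38 with q 0.0145. Mrpl9, a protein of a bacterial family, measured 39.5, 43.6 and 39.9 FPKM in controls and 34.5, 36.1 and 33.2 with ultrasound, again with no overlap. Its log2 change was -0.24 (SE 0.08, limma adjusted p 0.115), and -0.37 with q 0.00211 in the authors' deposited table. Mrps34, a small subunit protein named here for its q of 0.0413 in the authors' deposited table, measured 35.6, 35.5 and 34.4 against 31.8, 31.3 and 31.6 FPKM, with limma adjusted p 0.203.

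The largest differences among members not called came from ultrasound 2 and 3. Mrps21, a small subunit protein of the bacterial S21 family, measured 36.8, 36.4 and 36.3 FPKM in controls, 36.4 in ultrasound 1, and 67.7 and 70.9 in ultrasound 2 and 3. Ultrasound 1 lay inside the narrow control range and the other 2 libraries lay far above it. Its log2 change over all libraries was 0.60 (SE 0.24, limma adjusted p 0.15). It was 0.91 with adjusted p 0.000188 without ultrasound 1, and -0.01 with adjusted p 0.979 for ultrasound 1 alone against the controls.

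Mrpl43 and Mrpl52, both mitochondria-specific large subunit proteins, split in the same way in opposite directions. Mrpl43 measured 25.4, 22.5 and 21.4 FPKM in controls, 23.8 in ultrasound 1, and 36.7 and 35.5 in ultrasound 2 and 3. Mrpl52, the most highly expressed member, measured 88.5, 75.1 and 77.7 FPKM in controls, 81.1 in ultrasound 1, and 52.4 and 58.1 in ultrasound 2 and 3. For both genes ultrasound 1 lay within the control range. Their log2 changes were 0.43 and -0.35 with limma adjusted p of 0.148 and 0.204, and 0.63 and -0.53 with 0.00139 and 0.00315 without ultrasound 1. Mrpl1, a protein of the mobile L1 stalk, measured 2.86, 3.18 and 2.96 FPKM in controls against 3.22, 2.25 and 2.30, with adjusted p 0.406.

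**Figure D2:**
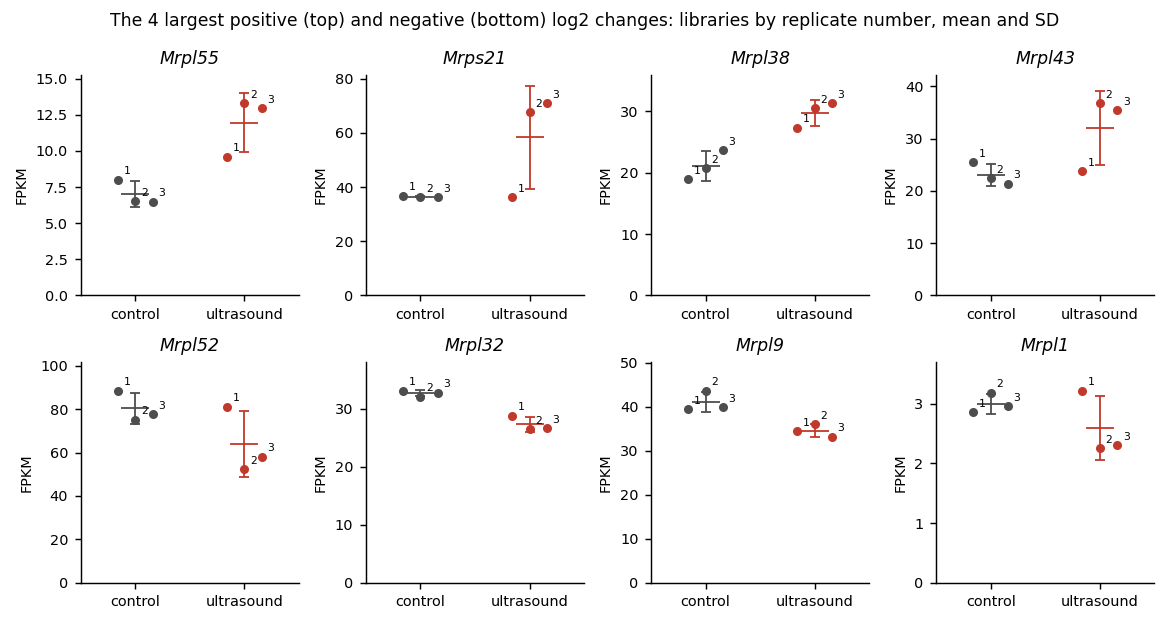
FPKM in each library for the 4 members with the largest positive log2 changes (top) and the 4 with the largest negative ones (bottom), with numbers marking the replicate, long bars the mean and error bars the SD of 3 libraries. Mrpl55, Mrpl38, Mrpl32 and Mrpl9 show no overlap between groups, while ultrasound 1 lies in or beside the control range for Mrps21, Mrpl43, Mrpl52 and Mrpl1.

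The split between ultrasound libraries was about as frequent among members as among all genes: ultrasound 2 and 3 lay together on one side of the other 4 libraries for 50 of 78 members (64.1%) and for 62.8% of all genes tested. The side differed in frequency. Both lay above the other 4 libraries for 42 members (53.8%), against 37.3% of all genes, and both below for 8 members (10.3%), against 25.4%. Taken library by library, ultrasound 1 exceeded all controls for 31 members (39.7%, all genes 44.6%), ultrasound 2 for 52 (66.7%, all genes 53.2%) and ultrasound 3 for 49 (62.8%, all genes 49.6%). Below all controls were 11 members in ultrasound 1 (14.1%, all genes 23.1%), 10 in ultrasound 2 (12.8%, all genes 29.6%) and 13 in ultrasound 3 (16.7%, all genes 34.5%). Without ultrasound 1, 35 members were called higher and 6 lower by limma at an adjusted p under 0.05, where 34.1% and 19.7% of all genes were called. With ultrasound 1 alone against the controls, a fit that assumes this library to vary like the others, 0 members were called, where 0.967% and 0.441% of all genes were called. At an unadjusted p under 0.05, 5 members were higher and 2 lower in that fit, against 16.1% and 5.93%.

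**Figure D3:**
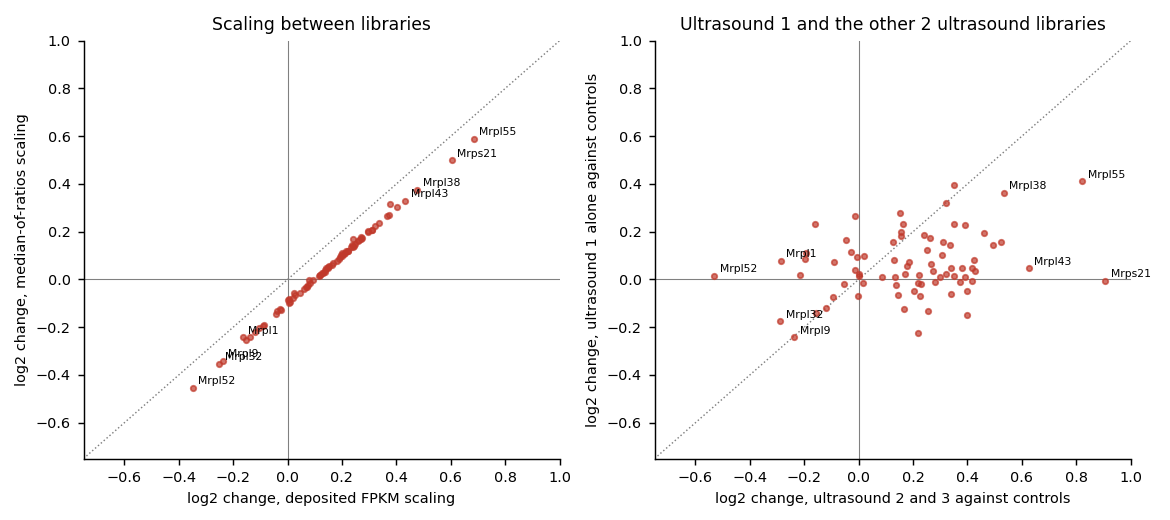
Left, log2 change of each member with the deposited FPKM scaling (horizontal) and with median-of-ratios scaling (vertical); right, log2 change of ultrasound 2 and 3 against controls (horizontal) and of ultrasound 1 alone against controls (vertical). The dotted line marks equality and the 8 members with the largest changes are named. On the left all members sit below the line by a near-constant amount, and on the right Mrps21 lies at 0.91 and -0.01 while Mrpl32 and Mrpl9 are negative on both axes.

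As a group, member differences were small and leaned upward on the FPKM scale. The log2 change was above 0 for 64 of 78 members, where 61.7% of all genes tested were above 0, and its median was 0.15 over members and 0.09 over all genes. The middle range from the lower to the upper quartile was 0.03 to 0.25 over members and -0.13 to 0.29 over all genes, a narrower range over members. On the log2(FPKM + 1) scale a fold of at least 1.5 was reached by 2 members, Mrpl55 and Mrps21, against 13.7% of all genes. With a pseudocount of 0.1 in place of 1 it was reached by 3, the third being Mrpl14, against 18% of all genes. Median-of-ratios scaling lowered the median of all genes from 0.09 to -0.01 and that of members to 0.06, with 49 members above 0 against 49.2% of all genes. Voom moved the all-gene median by more, to -0.03, with members at 0.04 and 48 above 0, against 46.9% of all genes. In the authors' deposited table the log2 fold change is above 0 for 48 members, against 47.5% of all genes, with medians of 0.04 and -0.02. Relative to the median of all genes, 50 of 78 members were higher with FPKM scaling (50% of all genes by construction), 51 with median-of-ratios factors and 50 with voom. These fits use all 6 libraries. For ultrasound 1 alone against the controls, 34 of 78 were higher (43.6%), with medians of 0.04 over members and 0.06 over all genes.

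Summed over the 78 members, the controls held 1545, 1464 and 1468 FPKM and ultrasound 1 to 3 held 1531, 1692 and 1672. Ultrasound 1 lay within the control range and the other 2 above it. The ratio of the group means was 1.093, and 1.015 after median-of-ratios scaling, where the scaled sums of 1494 to 1598 in controls and 1492 to 1610 with ultrasound overlapped. As a share of all FPKM the members took 0.342% to 0.359% in controls and 0.369%, 0.401% and 0.396% in ultrasound 1 to 3.

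The large and small subunits were also taken separately. The median log2 change was 0.18 over the 51 large subunit genes, with 42 above 0, and 0.10 over the 26 small subunit genes, with 21 above 0. With median-of-ratios scaling these became 35 of 51 large subunit genes and 13 of 26 small subunit genes above 0, with medians of 0.08 and 0.01. Both called members belong to the large subunit. The ratio of summed large to small subunit FPKM was 1.93 to 1.97 in controls and 1.94, 1.83 and 1.80 in ultrasound 1 to 3. Leaving out Mrps21 alone changed this to 2.08 to 2.12 in controls and 2.09, 2.07 and 2.04 with ultrasound. The 47 genes of bacterial families and the 30 mitochondria-specific genes had medians of 0.14 and 0.17, with 39 and 24 above 0, and with median-of-ratios scaling medians of 0.04 and 0.07, with 27 and 21 above 0.

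In the role group listed here as catalytic core 3 of 4 members lay above all controls in every ultrasound library, as did 25.9% of all genes tested. These were Mrpl2, Mrpl4 and Mrpl16, and not Mrpl3. The group is a fixed list, and the place of each protein in the ribosome, such as that of Mrpl4, was not checked here. Mrpl2, which contacts the peptidyl transferase centre, measured 23.3, 21.9 and 22.6 FPKM in controls and 25.9, 27.5 and 26.2 with ultrasound. Its log2 change was 0.22 (SE 0.08, limma adjusted p 0.116). Mrpl16, a protein near the tRNA sites, measured 14.7, 15.0 and 15.5 against 16.7, 20.1 and 18.4 FPKM, with a log2 change of 0.27 and adjusted p 0.113. Mrpl4 measured 5.50, 5.63 and 5.94 against 6.18, 6.99 and 7.53 FPKM. Mrpl3 measured 6.19, 6.01 and 5.60 against 6.39, 6.37 and 5.47 FPKM, and its log2 change of 0.03 turned to -0.06 with median-of-ratios scaling. With median-of-ratios scaling the log2 changes of Mrpl2, Mrpl4 and Mrpl16 were 0.12, 0.15 and 0.17, with limma adjusted p of 0.31, 0.345 and 0.225. None of the 4 was called.

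At the stalk that recruits translation factors, Mrpl10, Mrpl11 and Mrpl12 differed from each other. Mrpl11 measured 7.44, 6.70 and 6.47 FPKM in controls and 7.86, 8.78 and 8.08 with ultrasound, without overlap, at adjusted p 0.158. Mrpl10, the base of the stalk, measured 27.8, 26.3 and 27.4 against 27.3, 34.4 and 32.9 FPKM, with ultrasound 1 inside the control range. Mrpl12, which also binds the mitochondrial RNA polymerase, measured 44.5, 44.1 and 38.5 against 41.8, 45.0 and 40.5 FPKM, with overlapping groups. Its log2 change of 0.01 had a 95% interval of -0.22 to 0.23 and turned to -0.10 with median-of-ratios scaling.

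Around the exit tunnel, through which the new chain leaves, no member was called. Mrpl22 measured 7.80, 7.65 and 8.54 FPKM in controls and 8.29, 9.92 and 12.2 with ultrasound, and Mrpl23 measured 15.8, 14.5 and 15.96 against 18.3, 18.1 and 16.7. The groups overlapped for Mrpl22 and not for Mrpl23. Mrpl24, the member with the most reads, measured 46.7, 42.0 and 47.0 against 44.6, 43.6 and 43.4 FPKM. Mrpl45, which anchors the ribosome to the inner membrane at the tunnel exit, measured 8.61, 9.53 and 7.57 against 8.66, 10.6 and 9.68 FPKM, and both of these overlapped. Limma adjusted p was 0.2, 0.183, 0.738 and 0.385 for Mrpl22, Mrpl23, Mrpl24 and Mrpl45.

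In the decoding centre of the small subunit, Mrps12, the homologue of bacterial S12, measured 10.6, 11.7 and 11.4 FPKM in controls and 12.6, 14.0 and 14.3 with ultrasound. The groups did not overlap, and the log2 change was 0.26 (SE 0.09, limma adjusted p 0.116). Mrpl58, a peptidyl-tRNA hydrolase that rescues stalled ribosomes, measured 14.3, 15.0 and 14.7 against 14.1, 20.8 and 18.5 FPKM, with ultrasound 1 just below the controls. Its adjusted p was 0.259, and 0.00487 without ultrasound 1.

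The 3 members whose proteins lie outside the small subunit despite an Mrps symbol did not pass the test. Mrps18a measured 22.2, 24.5 and 24.9 FPKM in controls and 23.7, 29.7 and 32.7 with ultrasound, and Mrps30 measured 21.95, 24.2 and 21.6 against 21.4, 21.97 and 20.2. The groups of Mrps18a overlapped through ultrasound 1 and those of Mrps30 through ultrasound 2. Mrps36 measured 17.5, 17.9 and 18.1 against 18.1, 19.3 and 21.1 FPKM. Their limma adjusted p values were 0.236, 0.493 and 0.359.

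Members at the ends of the range of levels were also not called beyond those above. Mrpl33 measured 59.9, 46.4 and 56.3 FPKM in controls and 60.2, 54.6 and 63.8 with ultrasound, and Mrps16 measured 44.8, 41.4 and 43.8 against 36.9, 51.8 and 49.4. Mrps16 was the lowest of all libraries in ultrasound 1 and the highest in ultrasound 2 and 3, and the sign of its log2 change, 0.07, turned with median-of-ratios scaling to -0.03. At the low end Mrpl14, which sits at the interface of the subunits, measured 1.24, 1.01 and 1.03 FPKM against 1.31, 1.81 and 2.09, without overlap. Its change of 0.38 on the log2(FPKM + 1) scale understates the ratio of its group means, 1.59, since its level is close to the added 1, and its adjusted p was 0.124. Mrps25 measured 2.29, 1.92 and 1.79 FPKM against 2.09, 2.72 and 2.85, and Mrpl17 measured 3.55, 3.35 and 2.85 against 3.76, 3.199 and 3.01. Both overlapped between groups.

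Some members share annotated sequence with other genes. In GENCODE M21, exons of 33 of the 78 members overlap an exon of another gene, 28 of them on the opposite strand and 8 on the same strand. Of the 29 members named by rule, 11 have such an overlap. Mrpl43 overlaps Twnk, Mrpl9 overlaps Oaz3, Mrpl14 overlaps Tmem63b, Mrpl58 overlaps Ict1os, Mrps25 overlaps Nr2c2 and Mrpl24 overlaps Rrnad1, all on the opposite strand. Mrpl10, Mrpl12, Mrpl3, Mrpl33 and Mrps30 overlap genes known only by model or clone names. For Mrpl10, Mrpl12 and Mrps30 these lie on the opposite strand, for Mrpl33 on the same strand and for Mrpl3 on both. Of the others mentioned, Mrps34 overlaps Nme3 on the same strand and Mapk8ip3 on the opposite strand, and Mrps18b, Mrpl44 and Mrpl51 overlap other genes. Whether the counting used strand is not given in the sources used here, so whether values of opposite-strand pairs share reads is not known. Strand could not separate the reads of the same-strand pairs. The annotation also names 5 Mrp pseudogenes that could take or give reads.

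The genes that build and serve the mitochondrial ribosome showed few calls. Of 25 tested assembly factors 1 was called, Mpv17l2, an inner membrane protein needed for ribosome assembly, and 19 were above 0 with a median log2 change of 0.10. With median-of-ratios scaling 0 of them were called, 13 were above 0 and the median was 0.0011, and with voom 0 were called, 12 were above 0 and the median was -0.02. Mpv17l2 measured 15.5, 14.3 and 15.0 FPKM in controls and 19.1, 21.0 and 21.9 with ultrasound, without overlap. Its log2 change was 0.44 (SE 0.09, limma adjusted p 0.0384), 0.34 with adjusted p 0.0704 with median-of-ratios scaling, and 0.49 with adjusted p 0.00159 without ultrasound 1. Of 5 ribosome proteins with other symbols none was called, and 1 was lower at an unadjusted p under 0.05. Dap3, a small subunit GTP-binding protein, measured 14.7, 14.2 and 14.4 against 13.3, 16.1 and 16.3 FPKM, and Ptcd3 15.2, 15.0 and 14.9 against 13.5, 10.8 and 10.3, with adjusted p of 0.66 and 0.0933.

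Among 13 tested mitochondrial translation factors none was called by limma, 0 reached an unadjusted p under 0.05, and 10 were above 0 with a median of 0.17. The initiation factors Mtif2 and Mtif3 measured 9.16, 9.77 and 8.70 against 9.72, 6.90 and 6.54 FPKM and 3.23, 3.74 and 3.58 against 3.65, 4.96 and 5.14. In both, ultrasound 2 and 3 left the control range, downward for Mtif2 and upward for Mtif3. Of 16 tested mitochondrial tRNA synthetases none was called, 1 was higher and 1 lower at an unadjusted p under 0.05, and the median was 0.04. Lars2, the lower of these and named after its values were seen, measured 46.2, 48.0 and 71.7 FPKM in controls and 34.8, 11.5 and 11.7 with ultrasound, with a log2 change of -1.63 and limma adjusted p 0.0613, and no overlap between groups. Aars2 and Cars2, the first of that list, had log2 changes of 0.02 and 0.16.

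Genes that transcribe mitochondrial DNA or stabilise its mRNAs also gave no calls. Of 11 tested, 5 were above 0 and the median was -0.05, with 1 higher and 1 lower at an unadjusted p under 0.05. Polrmt, the mitochondrial RNA polymerase, measured 10.3, 10.4 and 11.7 FPKM in controls and 9.57, 12.6 and 13.6 with ultrasound. Tfam, which packages mitochondrial DNA, measured 16.7, 16.3 and 15.4 against 16.6, 13.0 and 11.9 FPKM. Of 9 tested nuclear regulators of mitochondrial genes none was called and 1 was lower at an unadjusted p under 0.05. Nrf1 and Gabpa, whose factors recognise motifs shown above, had log2 changes of 0.09 and -0.19 with limma adjusted p of 0.53 and 0.407. With median-of-ratios scaling no gene of these lists was called, and the other medians were -0.10 for the ribosome proteins with other symbols, 0.07 for translation factors, -0.05 for tRNA synthetases, -0.14 for transcription and stability genes and -0.02 for regulators.

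The genes whose mRNAs mitochondrial ribosomes translate had low values in ultrasound 2 and 3. All 13 protein genes of mitochondrial DNA had a log2 change below 0, with a median of -1.36, but 0 were called by limma, 6 were lower at an unadjusted p under 0.05, and ultrasound 2 and 3 were below the other 4 libraries for all 13. Voom and the authors' deposited table also called 0 of them, and ATP8 is listed at 0 in ultrasound 3. Without ultrasound 1, limma called all 13 lower, with a median of -1.94. ND1 and ND2, complex I subunits, had limma adjusted p of 0.161 and 0.111. The summed FPKM of these 13 genes was 10.01 to 13.9 times that of the 78 members in controls, 10.9 times in ultrasound 1, and 4.16 and 4.11 times in ultrasound 2 and 3. For ultrasound 1 alone, the median difference of the 13 genes from the control mean was 0.06. Whether libraries differed in their capture of mitochondrial RNA was not tested.

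Nuclear respiratory chain genes and cytosolic ribosomal protein genes were set beside the members. Of 88 tested respiratory chain genes 0 were called by limma, 14 were higher and 6 lower at an unadjusted p under 0.05, 58 were above 0 and the median was 0.09. The median turned to -0.01 with 43 above 0 with median-of-ratios scaling, and to -0.03 with 41 above 0 with voom. Voom called 0 of them, and 7 are lower with a q under 0.05 in the authors' deposited table. Of 94 tested genes with cytosolic ribosomal protein symbols 0 were called, 20 were above 0 and the median was -0.15, and 5 were higher and 33 lower at an unadjusted p under 0.05. Voom called 5 of them lower, and 1 is higher and 39 are lower with a q under 0.05 in the authors' deposited table. That symbol pattern also takes 11 genes of other function, such as the S6 kinases, without which the median is -0.19 over 85 genes. By library, medians of members were 0.04, 0.26 and 0.19 above the control mean in ultrasound 1 to 3, those of respiratory chain genes 0.01, 0.18 and 0.16, those of cytosolic ribosomal protein genes -0.14, -0.13 and -0.18, and those of all genes 0.06, 0.13 and 0.09. These comparisons share all libraries, and the differences between lists were not tested. The summed FPKM of the cytosolic list was 73.5 to 81.0 times that of the members in controls and 67.2, 60.6 and 59.6 times in ultrasound 1 to 3.

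**Figure D4:**
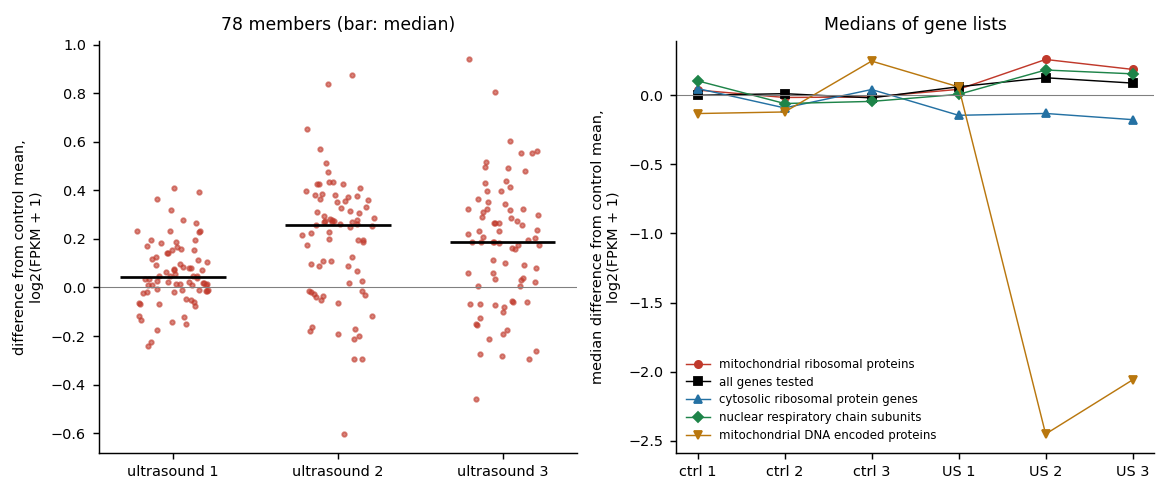
Left, difference of each of the 78 members from the control mean on the log2(FPKM + 1) scale in each ultrasound library, with the median as a bar; right, median difference by library (ctrl, control; US, ultrasound) for members and for 4 other sets of genes. Member medians are 0.04, 0.26 and 0.19, and the genes of mitochondrial DNA drop to -2.45 and -2.06 in ultrasound 2 and 3 while staying at 0.06 in ultrasound 1.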

How the data were processed

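RNA-seq of 3 control and 3 ultrasound libraries was used; groups and replicate numbers come from the sample titles. The submitters' processing notes name HISAT2, HTSeq, DESeq2, R 3.2.0 and mm10 without role or order. The authors deposited 1 table with an FPKM value per gene and library, per the file headers. It also holds a signal, the authors' group means of DESeq2 normalized counts, and their fold change (a ratio), log2 fold change, p-value and q-value, per the file headers; only the values named as the authors' come from it.

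The members and all lists were chosen with earlier results of these data known. Limma 3.58.1 in R 4.3.3 (trend, robust, no covariates) was fitted on log2(FPKM + 1) for 10655 genes with at least 1 FPKM in 3 libraries, with two-sided p-values, Benjamini-Hochberg adjustment and a threshold of 0.05. Fold changes on this scale understate low genes. FPKM columns and group means gave back whole reads, used for depth and voom: 100% of 77578 values checked lay within 0.05 of a whole number. Alternatives covered scaling, abundant genes, filter, pseudocount, robust option, replicate block, a term for ultrasound 2 and 3, thresholds, voom, the authors' values and each library left out. The fit and the read recovery were tested on simulated data. Named members are those called, the 4 largest changes each way, the 4 highest and 4 lowest levels, and fixed role groups; of the other lists, called genes or else the first 2. Values came from Python 3.11.15 with numpy 2.4.6 and pandas 2.3.3. Gene symbols were those of the table; promoters came from RefSeq, exons from GENCODE M21, and 9 members without a promoter entry, such as Mrpl38, have none shown.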

Additional observations from a re-analysis of the deposited data

How the results depend on the processing

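The 2 calls held without abundant mitochondrial, hemoglobin and immunoglobulin genes, with a pseudocount of 0.1, with at least 1 FPKM in all libraries and without the robust option. They fell to 0 with median-of-ratios or upper-quartile factors, no filter, the replicate block, the term for ultrasound 2 and 3, voom and an adjusted p of 0.01, and were 7 higher and 1 lower at 0.1 and 1 higher and 3 lower in the authors' deposited table. With no filter 0 of all 17744 genes were called in either direction, so that loss is not particular to the members. Leaving out each library gave 0 to 35 higher and 0 to 6 lower. Without ultrasound 1 the counts were 35 and 6, where 34.1% and 19.7% of all genes were called. Without any other library 0 members were called, and the share of all genes called there is not given here. The cause was not tested. Calls in the pathway lists, which hold 96 genes, not all tested, numbered 1 in the main fit. They fell to 0 with median-of-ratios or upper-quartile factors, no filter, the block, voom and 0.01. They were 2 without abundant genes or with 1 FPKM in all libraries. At 0.1 they were 9, where 14.3% of all genes were called higher and 4.15% lower. In the authors' deposited table they were 6, against 8.64% and 7.73%. Without ultrasound 1 they were 49, against 34.1% and 19.7%, and 0 without any other library. The summed ratio moved from 1.093 to 1.015 with median-of-ratios factors. Same-numbered libraries had correlations of deviations from their group means of -0.04, 0.05 and 0.06. With 3 libraries a group and ultrasound 1 apart, these values cannot show whether same-numbered libraries were handled together. With the replicate block 0 members and 0 genes in all were called. There 11 members were higher and 3 lower at an unadjusted p under 0.05, against 22% and 8.49% of all genes.

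Of 551 values of 29 named members over 19 alternatives, 473 kept direction and side of the threshold. Some alternatives keep the main log2 change, so direction could not turn there. They are no filter, 1 FPKM in all libraries, the non-robust fit, the replicate block and the other thresholds. Most of the 29 were not called in the main fit, and staying not called counts as kept. The count of 473 is therefore no measure of stability. Signs turned for 9 members, among them Mrps21 and Mrpl52, the second largest positive and the largest negative change. With the term for ultrasound 2 and 3, Mrps21 was -0.0051, Mrpl52 0.016, Mrpl1 0.077, Mrps16 -0.23, Mrpl12 -0.015, Mrpl58 -0.050 and Mrps18a -0.011. With median-of-ratios factors Mrps16, Mrpl17, Mrpl12 and Mrpl3 were -0.033, -0.056, -0.10 and -0.063, with upper-quartile factors -0.022, -0.048, -0.088 and -0.054, with voom -0.050, -0.10, -0.12 and -0.094, and in the authors' deposited table -0.040, -0.092, -0.12 and -0.092. Mrpl12 was -0.0045 without abundant genes. With each library left out in turn, Mrps16 ranged from -0.019 to 0.22, Mrpl17 from -0.046 to 0.076, Mrpl12 from -0.061 to 0.042 and Mrpl3 from -0.0072 to 0.091. The data are limited by 3 libraries a group, no stated batch and the distance of ultrasound 1 from the other ultrasound libraries; for the least covered members the counting error of 6.51% is also close to the median spread of 6.11% between controls.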
